A study of Mus musculus with 12 samples.

Results

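The NMDA receptor subunits were followed in mRNA-seq data from hippocampi in which a miRNA family had been inhibited in neurons. The 7 subunit genes Grin1, Grin2a, Grin2b, Grin2c, Grin2d, Grin3a and Grin3b were taken by name, out of 23781 genes in the count tables. They are held in 10 of the 32850 RefSeq transcript entries, called rows below, which were joined to gene symbols and summed per gene. Wild-type male C57BL/6 mice, 10 weeks of age, received bilateral hippocampal injections of an AAV5 vector in which the synapsin promoter, active in neurons, drives GFP. In sponge vectors, the GFP transcript also carries imperfectly complementary sites that sequester a miRNA family, so that the vector acts in transduced neurons while the RNA came from entire hippocampi. Tissue was taken 10 weeks after injection. The miR-9 experiment had 3 mice given GFP-miR-9sp (mice 17, 23 and 9) and 3 GFP Ctrl mice (16, 2 and 8), and the miR-34 experiment had 3 mice given GFP-miR-34sp (13, 18 and 3) and 3 other GFP Ctrl mice (10, 4 and 8). All 12 mice thus carried AAV and GFP, and no uninjected group was analysed here.

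NMDA receptors are tetrameric glutamate-gated cation channels that open when glutamate and a co-agonist, glycine or D-serine, are bound while the membrane is depolarised. Obligatory copies of GluN1, encoded by Grin1, bind the co-agonist, and the GluN2 subunits, encoded by Grin2a to Grin2d, bind glutamate and set the kinetics, calcium signalling and scaffold binding of the channel. In the forebrain Grin2b dominates early in life and Grin2a is added during maturation, whereas the GluN3 subunits, encoded by Grin3a and Grin3b, lower calcium permeability. Calcium entry through these receptors in the hippocampus starts the synaptic plasticity that spatial learning draws on. The question addressed by the data is whether the mRNA of any subunit differed between sponge and GFP Ctrl mice.

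The sequences that link these genes to the sponges are the miRNA seeds, bases 2 to 8 of the mature miRNA, shown in capitals (RefSeq, GRCm38.p6). The last 2 share a seed, and miR-34c-5p, also of this family, is named only.
mmu-miR-9-5p: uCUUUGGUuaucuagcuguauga
mmu-miR-34a-5p: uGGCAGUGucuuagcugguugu
mmu-miR-34b-5p: aGGCAGUGuaauuagcugauugu

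The longest annotated 3′ UTR of each subunit gene (GENCODE M1, mm9) was searched on the transcribed strand for the 7 bases complementary to each seed. For miR-9 (ACCAAAG) none of the 7 UTRs held a match, against 11.4% of all 19915 UTRs. For miR-34 (CACTGCC) Grin1 and Grin2b held 1 match each, against 14% of all UTRs. Among UTRs of like length, within 1.5 times, the share with a miR-34 match was 14.4% for Grin1 and 24.9% for Grin2b. The matches are shown in capitals with 10 bases on each side, since they are the only places in these UTRs where the 7 letters occur. Such a match describes letters and is not evidence of binding.
Grin1, chr2:25147038-25147064, minus strand: ggctagccttCACTGCCctagtggcag
Grin2b, chr6:135680426-135680452, minus strand: gaatatttgtCACTGCCcgacctgaaa

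The match in Grin1 begins at base 834 of a 1187-base UTR and that in Grin2b at base 1674 of 2272. The UTR annotated for Grin2a has 117 bases and that for Grin3b 86 bases, so the search covered little sequence there, and 402 bases were searched for Grin2c, 897 for Grin2d and 3615 for Grin3a. On mm9 the genes lie at chr2:25146701-25174707 (Grin1), chr16:9577803-9995014 (Grin2a), chr6:135679844-136123529 (Grin2b), chr11:115110483-115128557 (Grin2c), chr7:53087253-53126298 (Grin2d), chr4:49674483-49858616 (Grin3a) and chr10:79433460-79439935 (Grin3b). All are on the minus strand except Grin3b.

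The mice of the miR-9 experiment had 17279620 to 24428477 counted reads each, and those of the miR-34 experiment had 11029604 to 16934133. Levels between mice are given as CPM, the read count scaled to library size. Marker values in this paragraph and all marker sums are TMM-scaled over all 12 mice. Values of other single genes are TMM-scaled within each experiment unless said otherwise, so the 2 scales differ slightly. Hippocampal cell type markers were present, and the neuron list summed to 484 CPM or more in every mouse. Of the 2 genes chosen as absent controls, Hba-a1, a blood gene, was at or near 0. The muscle gene Myh1 had 0.523 to 1.63 CPM, above the floors of 3 reads given below, so it was not absent. Choroid plexus markers were the main difference in tissue content. The 7 markers summed to between 656 and 2403 CPM in the GFP Ctrl mice of the miR-34 experiment and to between 73.3 and 153 in miR-34sp mice. In the miR-9 experiment the sums varied widely within both groups, from 119.5 to 719 in GFP Ctrl mice and from 52.6 to 855 in miR-9sp mice. All 5 of the tested ones were lower in every miR-34sp mouse, and Folr1 and Otx2 were at or near 0 in all libraries. The miRNAs themselves were not measured.

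The number of reads behind each subunit differed widely. Grin2b, in 1 row (NM_008171), had the most, 3582 to 6433 per mouse, followed by Grin2a (NM_008170) with 1411 to 3634 and Grin2c (NM_010350) with 786 to 2016. Grin2d (NM_008172) had 270 to 773 reads and Grin3b (NM_130455) had 5 to 23. Grin1 has 3 rows, of which NM_008169 held 496 to 1226 reads, NM_001177656 held 8 to 32 and NM_001177657 held 0 in every mouse. The first of these carried 97.7% ± 0.509 (SD, n = 12) of the reads of the gene. Grin3a has 2 rows, of which NM_001033351 had 0 reads in all mice and NM_001276355 had 6 reads in all, 1 in each of 6 mice.

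In both genes with several rows, at least 1 row was thus without a read. The rows of such a gene overlap, and the sources used here do not give the rule for reads that overlapping rows share. The values of Grin1 and Grin3a may therefore cover only part of their transcripts, and an absence of Grin3a cannot be read from them. Grin3a did not pass the limit of a mean of more than 10 scaled reads over the 6 mice and was not tested. The other 6 subunits passed it in both experiments.

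In GFP Ctrl mice of the miR-9 experiment, Grin2b was the most abundant subunit transcript per length. Levels per length are in RPKM, the reads per kilobase of row scaled to library size. Over the 6 mice of the miR-9 experiment, Grin2b ranged from 28.6 to 40.3 RPKM with a median of 30.2, Grin2a from 16.5 to 24.2 with a median of 17.9, and Grin2c from 14.9 to 17.1. Grin1 lay between 11.7 and 14.1 RPKM, Grin2d between 6.43 and 8.16, and Grin3b between 0.0997 and 0.296. In the miR-34 experiment the order at the top differed. There Grin2a ranged from 46.3 to 54.0 RPKM and Grin2b from 42.6 to 52.5, above Grin2c with 14.1 to 16.6, Grin1 with 10.1 to 11.7, Grin2d with 5.29 to 6.34 and Grin3b with 0.139 to 0.447.

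**Figure D1:**
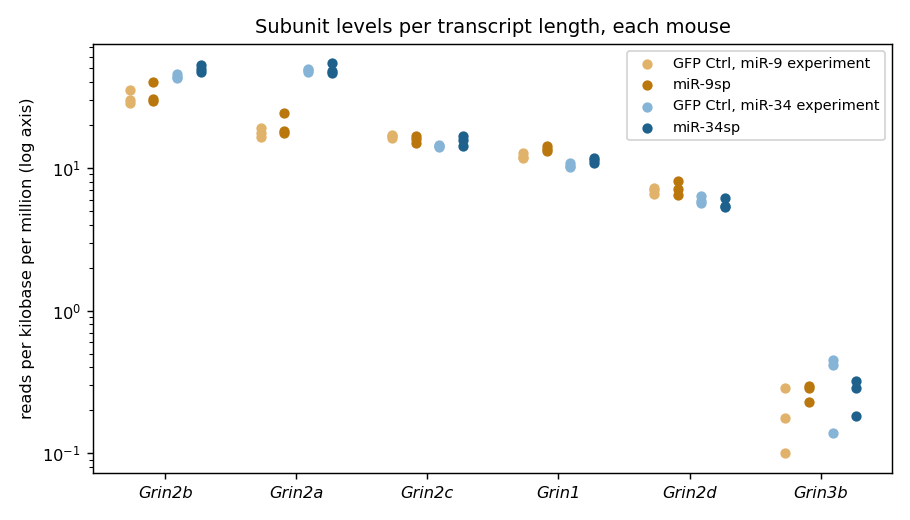
Level of each subunit per transcript length in every mouse, in RPKM on a log axis, coloured by group, with 1 point per mouse. Grin2a and Grin2b lie higher in the miR-34 experiment than in the miR-9 experiment, and Grin3b stays below 0.5 in every mouse.

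The subunits were ranked by their median level over all 12 mice. Neighbours in this order were compared within each mouse, by an exact two-sided sign-flip permutation test of the log2 ratio. The ranking came from the same values as the test, so each p describes only how steady a ratio was from mouse to mouse. A counting effect shared by all mice would give the same result. Over all 12 mice Grin2b exceeded Grin2a by a median of 1.35-fold (adjusted p = 0.0273 over 5 neighbour pairs, exact permutation test), but it was the higher in only 7 of 12 mice. Within the miR-9 experiment it was higher in 6 of 6 mice, by 1.61 to 1.84-fold, and within the miR-34 experiment Grin2a was the higher in 5 of 6 mice (adjusted p = 0.281, exact permutation test). The relation of these 2 genes thus did not hold within both experiments. Each of the other neighbours kept its order in 12 of 12 mice, with an unadjusted exact permutation p of 0.000488, the smallest that 12 mice allow. Grin2a exceeded Grin2c by 1.02 to 3.76-fold, Grin2c exceeded Grin1 by 1.13 to 1.45-fold, Grin1 exceeded Grin2d by 1.62 to 2.14-fold and Grin2d exceeded Grin3b by 13.1 to 70.7-fold. The place of Grin1 rests on rows that may hold part of its reads, and GluN1 is required in every receptor.

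Among the subunits with over 100 reads in every mouse, Grin2a differed most between the GFP Ctrl sets. Its mean was 77.7 ± 5.78 (SD, n = 3) CPM in the GFP Ctrl mice of the miR-9 experiment and 223 ± 5.27 (SD, n = 3) in those of the miR-34 experiment, on 1 scale for all 12 mice. The ratio was 2.87, and a ratio above 2 was found for 3.57% of 12700 genes. Grin2b had a ratio of 1.47, while Grin1 (0.902), Grin2c (0.897) and Grin2d (0.902) were slightly lower in the miR-34 experiment. Among the 4 GluN2 transcripts, Grin2a made up 24.4% ± 0.628 (SD, n = 3) per length in the GFP Ctrl mice of the miR-9 experiment and 43.1% ± 1.23 (SD, n = 3) in those of the miR-34 experiment. Grin2c made up 23.04% and 12.7%, Grin2d 9.59% and 5.31%, and Grin2b 43.0% and 38.9%. Experiment, library preparation and mice cannot be told apart in this comparison, and no test was made of it. The labels of the counts contain the word totRNA in the miR-9 experiment only, although poly-A enrichment is described for both.

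After miR-9 inhibition, 5 of the 6 tested subunits had a higher fitted level than in GFP Ctrl mice and 1 a lower one. None passed an adjusted p of 0.05 in the quasi-likelihood test of edgeR. Of all 12907 genes tested, 0% passed in either direction. At an unadjusted p under 0.05, 1 of 6 subunits passed, Grin1, against 4.76% of all genes. The sponge and GFP Ctrl mice did not overlap for 1 of 6 subunits, against 10.2% of all genes. The median log2 fold change was 0.15 over the 6 subunits and -0.00067 over all genes tested.

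Grin1, the obligatory subunit, measured 51.0, 54.1 and 49.9 CPM in GFP Ctrl mice 16, 2 and 8 and 60.4, 57.7 and 58.7 in miR-9sp mice 17, 23 and 9. Every miR-9sp mouse lay above every GFP Ctrl mouse. The log2 fold change was 0.19 (SE 0.0477, 95% interval 0.08 to 0.30), a 1.14-fold difference, with an adjusted p of 0.970 in edgeR. By row, NM_008169 gave 0.19 and NM_001177656 gave 0.36. Sums of marker genes of several cell types also did not overlap between these groups. The 5 CA2 and CA3 pyramidal cell markers summed to between 371 and 418 CPM in miR-9sp mice and between 324 and 368 in GFP Ctrl mice, with 3 of 5 higher at an unadjusted p under 0.05. The 4 CA1 markers summed to between 719.8 and 771 CPM in miR-9sp mice and between 677 and 719.4 in GFP Ctrl mice. The groups thus nearly met, with 3 of 4 markers having a positive log2 fold change and 0 of 4 at that limit. The 5 microglia markers summed to between 376 and 398 CPM in miR-9sp mice and between 405 and 413 in GFP Ctrl mice, with 1 of 5 lower at that limit. All 5 dentate granule cell markers had a positive log2 fold change (median 0.30), with 0 of 5 at that limit and overlapping sums. None of these markers was at 0, and the part of these cells in the Grin1 value was not tested. In bulk RNA, fewer cells of a type and less RNA per cell cannot be told apart.

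Grin2a measured 85.5, 78.6 and 73.7 in the GFP Ctrl mice and 81.8, 112 and 79.99 in miR-9sp mice 17, 23 and 9. Mouse 23 stood above all others and the remaining miR-9sp mice lay within the GFP Ctrl range. The log2 fold change was 0.20 (SE 0.114, 95% interval -0.05 to 0.45, adjusted p = 0.970 in edgeR), and it was 0.03 without mouse 23. Grin2b, which anchors CaMKII at the synapse, measured 262, 212 and 224 in GFP Ctrl mice and 219, 310 and 228 in miR-9sp mice, again with mouse 23 on top. Its log2 fold change was 0.12 (SE 0.122, adjusted p = 0.970 in edgeR), and it became -0.06 without mouse 23. This mouse also had the highest summed level of the 5 dentate granule cell markers, 443 CPM, where the other miR-9sp mice had 290 and 272 and the GFP Ctrl mice 235 to 363. None of these markers was at 0, and their part in the Grin2a and Grin2b values was not tested.

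Grin2c, a subunit known from cerebellar granule cells and astrocytes, measured 82.0, 82.8 and 78.2 in GFP Ctrl mice and 77.8, 74.8 and 82.0 in miR-9sp mice. The groups overlapped, with a log2 fold change of -0.05 (SE 0.0460, adjusted p = 0.970 in edgeR). Grin2d, the subunit of slowly deactivating receptors and of interneurons, measured 31.5, 30.6 and 28.6 against 35.6, 28.9 and 31.1, with a log2 fold change of 0.08 (SE 0.0784, adjusted p = 0.970 in edgeR). Grin3b had too few reads to be informative, with 7 to 23 reads in GFP Ctrl mice, 13 to 19 in miR-9sp mice and a 95% interval of the log2 fold change from -0.27 to 1.31. For Grin2c, in contrast, the interval was -0.15 to 0.05.

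**Figure D2:**
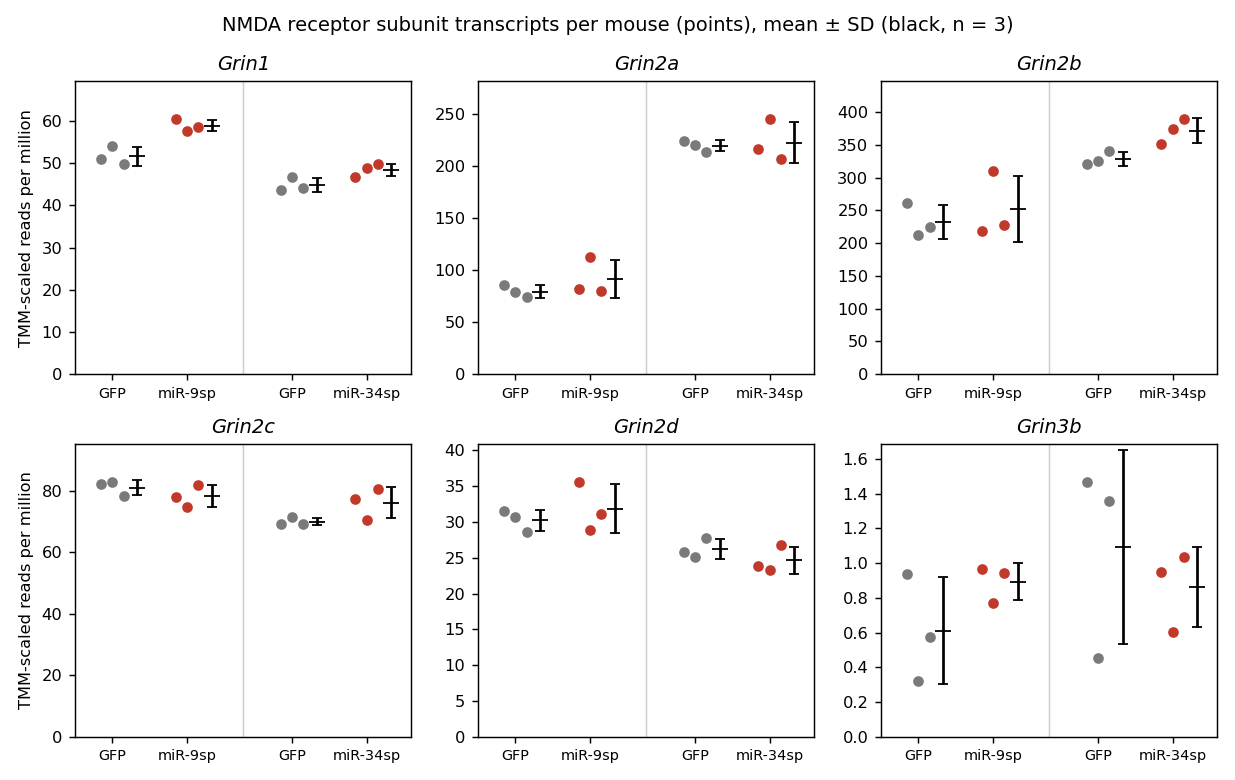
TMM-scaled CPM of the 6 tested subunit genes in each mouse, scaled within each experiment, with GFP Ctrl mice in grey, sponge mice in red, and the mean ± SD of 3 mice in black. Grin1 lies higher in all sponge mice than in GFP Ctrl mice of the same experiment, Grin2b does so in the miR-34 experiment only, and 1 miR-9sp mouse has the highest Grin2a and Grin2b of its experiment.

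After miR-34 inhibition, Grin2b was the subunit with the clearest separation, 1.13-fold higher than in GFP Ctrl mice. Of the 6 tested subunits, 4 had a higher and 2 a lower fitted level, and none passed an adjusted p of 0.05 in edgeR, while 0.0324% of all 12364 genes tested did. At an unadjusted p under 0.05, 2 of 6 subunits passed, Grin2b and Grin2c, both higher, where 6.38% of all genes passed in either direction and 2.69% were higher. All miR-34sp mice lay above all GFP Ctrl mice for 2 of 6 subunits, Grin1 and Grin2b, against 5.81% of all genes. The median log2 fold change was 0.06 over the 6 subunits and -0.00067 over all genes tested.

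Grin2b measured 320, 325 and 341 CPM in GFP Ctrl mice 10, 4 and 8 and 352, 375 and 389 in miR-34sp mice 13, 18 and 3. The groups did not overlap. The log2 fold change was 0.18 (SE 0.0440, 95% interval 0.08 to 0.28), with an adjusted p of 0.386 in edgeR. With no filter on low counts the adjusted p was 0.0489 in edgeR, past the limit. In 1 model of all 12 mice the log2 fold change was 0.18 with a larger SE of 0.104. Its unadjusted p there was 0.109 and its adjusted p 0.848 in edgeR, so it did not pass either limit. The adjusted p ranged from 0.0489 to 0.848 over the alternative edgeR and DESeq2 fits, leaving out each mouse included. This range does not hold the fit without GFP Ctrl mice 4 and 8. Grin2b holds 1 of the 2 miR-34 seed matches shown above, while Grin2c, also higher at the unadjusted limit, holds none. Whether a match bears on these levels was not tested. Without GFP Ctrl mice 4 and 8, which had the highest choroid plexus marker sums, the log2 fold change was 0.21, with 1 GFP Ctrl mouse left. That mouse, 10, still had a marker sum of 656 CPM, against 73.3 to 153 in miR-34sp mice. The groups thus still differed in choroid plexus content, and its part in the Grin2b value was not tested.

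Grin1 holds the other match. It measured 43.7, 46.6 and 44.2 in GFP Ctrl mice and 46.7, 48.8 and 49.7 in miR-34sp mice, so that the highest GFP Ctrl mouse and the lowest miR-34sp mouse nearly met. The log2 fold change was 0.11 (SE 0.0554, 95% interval -0.01 to 0.23, adjusted p = 0.813 in edgeR). By row, NM_008169 gave 0.11 (SE 0.0550) and NM_001177656, with 8 to 21 reads, gave 0.23 (SE 0.362). The level of Grin1 was thus above GFP Ctrl in all sponge mice of both experiments, and neither difference passed the adjusted test.

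Grin2a was almost level, with 224, 220 and 213 in GFP Ctrl mice and 216, 244 and 207 in miR-34sp mice. Its log2 fold change was 0.02 (SE 0.0559, 95% interval -0.10 to 0.14, adjusted p = 0.976 in edgeR). Grin2c measured 69.2, 71.3 and 69.2 against 77.3, 70.5 and 80.5, and 1 miR-34sp mouse fell within the GFP Ctrl range. Its log2 fold change was 0.13 (SE 0.0552, 95% interval 0.004 to 0.25, adjusted p = 0.769 in edgeR). Grin2d measured 25.8, 25.0 and 27.8 against 23.8, 23.3 and 26.8, with overlap and a log2 fold change of -0.09 (SE 0.0794, adjusted p = 0.918 in edgeR). For Grin3b, with 5 to 20 reads in GFP Ctrl mice and 7 to 16 in miR-34sp mice, the interval was -1.23 to 0.54.

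CA2 and CA3 markers went the other way in this experiment, with sums of 333 to 375 CPM in miR-34sp mice and 406 to 426 in GFP Ctrl mice, and 3 of 4 tested genes were lower at an unadjusted p under 0.05. None of these markers was at 0, and the part of these cells in the subunit values was not tested. Of the 5 dentate granule cell markers, 4 had a positive log2 fold change and 3 were higher at an unadjusted p under 0.05 (median 0.24), while their sums overlapped, 381 to 436 CPM in miR-34sp mice and 328 to 432 in GFP Ctrl mice. None of them was at 0, and their part in the Grin2b, Grin2c and Grin1 values was not tested.

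**Figure D3:**
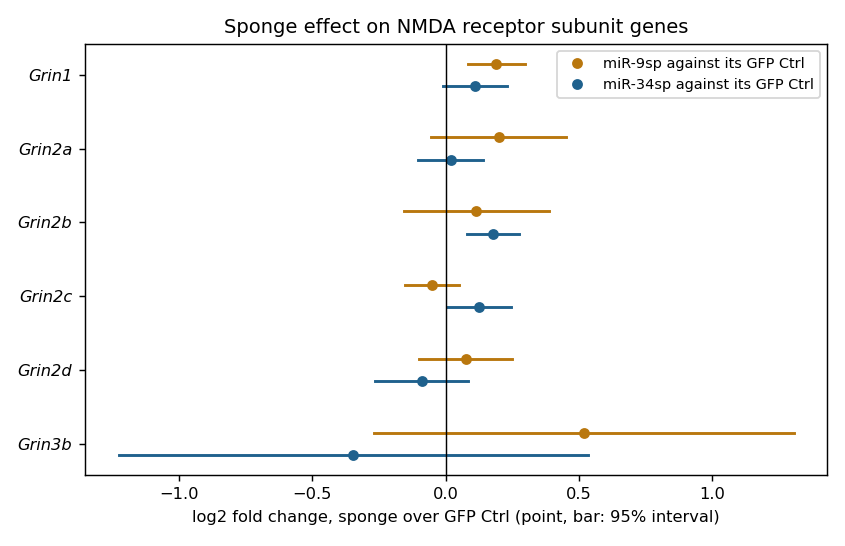
Log2 fold change of sponge over GFP Ctrl for each tested subunit gene, with the edgeR estimate as a point and its 95% interval as a bar, for the miR-9 (brown) and miR-34 (blue) experiments. The interval lies above 0 for Grin1 after miR-9sp and for Grin2b and Grin2c after miR-34sp, and Grin3b has the widest interval in both.

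The sponge effects were also compared with each other in 1 model of all 12 mice. None of the 6 subunits differed at an adjusted p of 0.05 in edgeR, and 0% of 12700 genes did. Grin2c came closest, with a log2 difference (miR-9sp effect minus miR-34sp effect) of -0.17 (SE 0.0728, adjusted p = 0.770 in edgeR), and it was 1 of 6 subunits at an unadjusted p under 0.05, against 6.14% of all genes. For Grin1 the difference was 0.08 (95% interval -0.07 to 0.23), for Grin2a 0.18 (-0.12 to 0.48; 0.01 without miR-9sp mouse 23) and for Grin2b -0.06 (-0.37 to 0.25), so that a separate response to the sponges was not detectable for the main hippocampal subunits.

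Subunit transcripts were compared by ratios within each mouse. The Grin2a to Grin2b ratio, which rises as receptors mature, was 0.543, 0.615 and 0.546 per length in GFP Ctrl mice of the miR-9 experiment and 0.623, 0.601 and 0.583 in miR-9sp mice. In the miR-34 experiment it was 1.16, 1.13 and 1.04 in GFP Ctrl mice and 1.02, 1.08 and 0.883 in miR-34sp mice. The log2 difference, sponge minus GFP Ctrl, was 0.08 for miR-9sp (exact permutation test, p = 0.3) and -0.16 for miR-34sp (exact permutation test, p = 0.2). The sum of Grin2a and Grin2b relative to Grin1 was 3.63 to 4.54 in GFP Ctrl mice and 3.36 to 4.93 in miR-9sp mice, and in the miR-34 experiment it was 8.48 to 9.09 and 8.44 to 9.18, respectively. The Grin1 rows may hold only part of its reads, so the size of this ratio does not give the composition of receptors. The adjusted p of these 4 comparisons was 0.6 to 0.9 (exact permutation test), and 3 mice against 3 cannot reach a two-sided exact p under 0.1, so these p-values do not show that the ratios were alike. The difference of -0.16 was larger than the SD of either group (0.152 in miR-34sp mice and 0.0823 in GFP Ctrl mice, on the log2 scale), although the ratios of the groups overlapped. No ratio was computed for Grin3a, with 0 or 1 read per mouse.

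The genes around the receptor were described by 6 lists of 89 genes in all. In the miR-9 experiment 77 were tested and none passed an adjusted p of 0.05 in edgeR. At an unadjusted p under 0.05, 10 were higher and 1 was lower, 14.3% against 4.76% of all genes, and the median log2 fold change was 0.03. Of the 20 tested calcium and calmodulin signalling genes, 4 were higher at an unadjusted p under 0.05, Adcy1, Calm3, Prkca and Camk2a. Of 15 postsynaptic scaffold genes 2 were higher (Shank1 and Dlgap3), of 11 trafficking and surface partners 2 were higher (Reln and Nsf), and among genes of glutamate supply and uptake Slc17a7 was higher and Slc17a6, also on the thalamus marker list, was lower. The 14 kinases and phosphatases and the 10 co-agonist genes held none.

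Reln encodes reelin, a protein secreted by interneurons that modulates NMDA receptors. It measured 142, 117 and 137 CPM in GFP Ctrl mice and 179, 160 and 155 in miR-9sp mice, without overlap, with a log2 fold change of 0.32 (SE 0.0747, adjusted p = 0.970 in edgeR). Adcy1, a calmodulin-stimulated adenylyl cyclase, measured 1723, 1616 and 1728 against 1940, 2303 and 1799, with a log2 fold change of 0.25 (SE 0.0764, adjusted p = 0.970 in edgeR). Its highest value was again in mouse 23. The groups did not overlap for 14 of 77 list genes, 11 of them higher, against 10.2% of all genes.

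In the miR-34 experiment 76 of the 89 list genes were tested and none passed an adjusted p of 0.05 in edgeR. At an unadjusted p under 0.05, 1 was higher (Akap5, an anchoring protein for protein kinase A) and 3 were lower (Ppp1r1b, Prkca and Ephb1), 5.26% against 6.38% of all genes, and the median log2 fold change was -0.01. Ppp1r1b encodes DARPP-32, a phosphatase inhibitor of dopamine-responsive neurons, and measured 49.8, 61.9 and 67.5 in GFP Ctrl mice and 41.7, 41.3 and 45.7 in miR-34sp mice. Its log2 fold change was -0.47 (SE 0.0969, adjusted p = 0.183 in edgeR). Ppp1r1b is also 1 of the 5 striatum markers, whose sum was 58.7 to 65.8 in miR-34sp mice and 65.4 to 112 in GFP Ctrl mice, none at 0 except Drd1, which has several rows, and their part in this value was not tested. Prkca, a calcium-dependent protein kinase, measured 705, 727 and 649 against 637, 645 and 608, with a log2 fold change of -0.14 (SE 0.0451, adjusted p = 0.602 in edgeR). All 12 list genes left untested in the miR-9 experiment and all 13 in the miR-34 experiment have more than 1 row, Dlg4, which encodes PSD-95, among them.

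**Figure D4:**
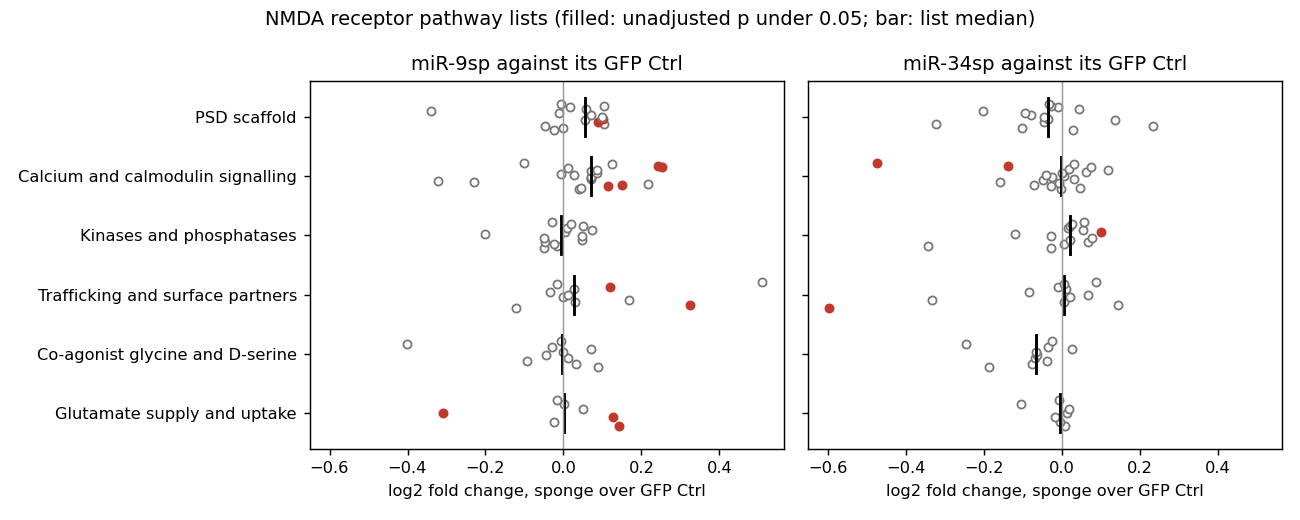
Log2 fold change of sponge over GFP Ctrl for each tested gene of the 6 NMDA receptor pathway lists, 1 point per gene, filled where the unadjusted edgeR p is under 0.05, with a black bar at the list median. In the miR-9 experiment 10 filled points lie above 0 and 1 below, and in the miR-34 experiment 1 lies above and 3 below.

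The genes most like each subunit were sought by Pearson correlation of log2(CPM + 1) over the 12 mice, after subtraction of each group mean, among 9157 genes with a mean above 100 scaled reads. Grin2b followed Heatr5b (r = 0.969) and Nsd1 (r = 0.959), and Grin2a followed Klhl34 (r = 0.957) and Atrx (r = 0.913). For Grin1 these were Cenpv (r = 0.962) and Spice1 (r = 0.921), for Grin2c AU040320 (r = 0.932) and Uqcc2 (r = 0.93), and for Grin2d B9d1 (r = 0.925) and Efs (r = 0.91). Genes of 1 mouse share its library, dissection and depth, and the best of 9157 genes over 12 mice is high by selection, so these values are a description only.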

How the data were processed

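Hippocampal RNA of 12 mice was sequenced as 50 bp single end reads after poly-A enrichment. The authors deposited raw read counts per RefSeq row, not scaled, beside another value, the row length in bases. The methods give mm9 and the submitters' processing notes name STAR and mm10, whereas the counting tool and its rule for shared reads are not given in the sources used here. Mice were grouped by their labels, and the GFP Ctrl set whose labels name no experiment was placed in the miR-9 experiment, since each experiment had 3 GFP Ctrl mice per the methods. Where nothing says otherwise, each library is taken as 1 mouse.

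Rows were joined to symbols through RefSeq accessions (GRCm38.p6 table), which covered 98.7% of rows. The rest held 0.773% to 2.18% of reads and stayed out of the gene tests. Genes with a mean above 10 scaled reads over 6 mice were tested with edgeR 4.0.16 (R 4.3.3; TMM, quasi-likelihood, Benjamini-Hochberg over all genes), with DESeq2 1.42.0 as an alternative. In simulated counts, edgeR recovered 98% of 1.5-fold changes in the miR-9 experiment (12835 genes) and 97% in the miR-34 experiment (12278 genes). The changed genes had a mean above 100 reads, and every gene was given the same relative spread between mice beyond counting error. Recovery of changes below 1.5-fold, or in genes with fewer reads or more spread, was not tested. These shares therefore do not apply to differences as small as 1.14-fold (Grin1 after miR-9sp) or 1.13-fold (Grin2b after miR-34sp). Nor do they apply to Grin3b, with 5 to 23 reads per mouse, or to Grin2a and Grin2b after miR-9sp. In miR-9sp mice Grin2a measured 91.3 ± 18.0 CPM and Grin2b 252 ± 50.3 CPM (SD, n = 3). Exact permutation tests used scipy 1.17.1. Floors of 3 reads, 0.123 to 0.272 CPM, cover counting error only, since PCR copies were not marked.

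The subunits, the gene lists and the markers were chosen with earlier results of these data known. All subunits are named. Of the lists, the 2 genes with the lowest p in each experiment are given in full, and the other list genes were named after their values were seen because few passed. A list gene that is counted in the totals is not reported here by itself. Alternatives were other size factors, no filter, 1 model for all mice, the row with most reads, the study's criterion and leaving out each mouse. No mouse label pairs sponge and GFP Ctrl mice. Data on miR-124 were not analysed here.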

Additional observations from a re-analysis of the deposited data

Results flagged for a closer look

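The protein kinase gene Prkca was picked out because its groups did not overlap in either experiment and its differences had opposite signs. Among the subunits and list genes tested in both experiments, no other gene met both conditions. Of all genes, 10.2% had groups that did not overlap in the miR-9 experiment and 11.6% in the miR-34 experiment. The share of all genes that met both conditions was not computed. All miR-9sp mice (651, 827 and 655 CPM) lay above their GFP Ctrl mice (571, 640 and 592), and all miR-34sp mice (637, 645 and 608) lay below theirs (705, 727 and 649). The log2 difference between the sponge effects was 0.38 (SE 0.107), with an adjusted p of 0.703 in edgeR, so the difference did not pass the test over all genes. Since Prkca was picked from these same values, the difference is a description only.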

How the results depend on the processing

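No subunit passed in the miR-9 experiment or in the comparison of the sponge effects under any alternative that was run, and in the miR-34 experiment 1 did, Grin2b, with no filter on low counts (log2 fold change 0.18, adjusted p = 0.0489). Of 246 subunit values under alternatives, 8 reversed. In the miR-9 experiment these were Grin2b without mouse 23 (-0.0586) and Grin2d without mouse 17 (-0.0126). In the miR-34 experiment they were Grin2a without GFP Ctrl mouse 8 (-0.0001), without mouse 18 (-0.0532) and without GFP Ctrl mice 4 and 8 (-0.0132), the last chosen after the data were seen. For the difference in Grin2b they were the values without GFP Ctrl mouse 16 (0.0236), without mouse 17 (0.0317) and without mouse 9 (0.004). Leaving out each mouse moved Grin1 over 0.17 to 0.22 for miR-9sp and 0.09 to 0.14 for miR-34sp, Grin2a over 0.03 to 0.29 and -0.0532 to 0.0689, Grin2b over -0.0586 to 0.209 and 0.15 to 0.22, and Grin2d for miR-9sp over -0.0126 to 0.141. For the difference in Grin2b the range was -0.234 to 0.0317, and for that in Grin2a it was 0.0132 (without mouse 23) to 0.267. Other values that moved by over 1.5 times included Grin2d for miR-34sp, -0.152 (without mouse 3) to -0.0465 (without GFP Ctrl mouse 8), Grin2c for miR-9sp, -0.0864 to -0.02, and Grin3b, 0.214 to 1.01 for miR-9sp, -0.682 to -0.0636 for miR-34sp and 0.562 to 1.35 for the difference.

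Over all genes, edgeR called 0 in the miR-9 experiment (614 at an unadjusted p under 0.05), DESeq2 2, edgeR with no filter 2, the study's criterion 182, and leaving out each mouse 0 to 1. In the miR-34 experiment the main count of 4 became 35 with DESeq2, 80 with no filter, 0 in 1 model of all 12 mice, 248 by the study's criterion, 1 without GFP Ctrl mice 4 and 8, and 0 to 56 on leaving out each mouse, 56 without GFP Ctrl mouse 10. For the difference between the sponge effects the main count of 0 (780 at an unadjusted p under 0.05) became 5 with DESeq2 and 0 to 1 on leaving out each mouse. The Grin2b to Grin2a ratio was 1.25 in GFP Ctrl mice only (adjusted p = 0.25, exact permutation test) and 0.942 in the miR-34 experiment by itself, which was added after the data were seen. Leaving out each mouse moved the log2 difference in the Grin2a to Grin2b ratio between 0.05 and 0.14 for miR-9sp and between -0.23 and -0.08 for miR-34sp, and that in the ratio of Grin2a plus Grin2b to Grin1 between -0.23 and 0.05 for miR-9sp and between -0.05 and 0.01 for miR-34sp. The cause of these shifts was not tested. No paired analysis was possible because sponge and GFP Ctrl mice of an experiment share no number. With 5 to 23 reads per mouse, Grin3b is limited by depth, and Grin3a could not be tested.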

Other observations

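Genes with several RefSeq rows, the kind to which Grin1 and Grin3a belong, had a lower median read number than genes with 1 row. Of 4737 genes with 2 or more rows, 35.2% had a mean above 10 scaled reads over the 12 mice and the median was 2.75 scaled reads. Of 19044 genes with 1 row, 57.9% did and the median was 43.6. Grin1, with 496 to 1226 reads per mouse in its main row, lay above both medians, and Grin3a below both. No read was counted in any mouse for 22.4% of the former and 17.4% of the latter.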
